A study of Mus musculus with 6 samples.

Results

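The genes described here are 10 core components and direct outputs of the circadian clock in mouse liver: Arntl, Per1, Per2, Per3, Cry1, Nr1d1, Nr1d2, Dbp, Tef and Ciart. They were taken by gene symbol from a table of 24034 genes, all 10 were found, and all 10 passed the filter on low values that left 13250 genes for testing. The study compared livers of C57BL/6 mice at 25 weeks of age by RNA sequencing, with 3 libraries labelled HO (genotype lncenc13A/3A) and 3 labelled WT (genotype lncenc1wt/wt). The submitters call the HO animals knockouts of Lncenc1, a gene for a long non-coding RNA, and the sources used here do not describe the allele further. The genotype labels were not checked against Lncenc1 RNA, which was not analysed here. The labels used here name no time of day, light cycle or feeding state at collection, so a shift of clock phase between animals and a change of level at a fixed phase cannot be told apart in these values. Whether each library is 1 animal is not stated either, so p-values measure only the spread between these libraries, which may be technical. Expression was deposited as FPKM (fragments scaled per length of transcript and per mapped fragments of the library), which is scaled for gene length, so that levels of different genes can be set side by side.

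The clock of most mammalian cells is a loop of transcription. The protein encoded by Arntl, also called BMAL1, pairs with CLOCK and switches on genes that carry an E-box. Among these are the Period and Cryptochrome genes and Ciart, whose products repress the pair, and Nr1d1 and Nr1d2, whose products, the REV-ERB receptors, repress Arntl through elements called ROREs. Dbp and Tef encode transcription factors of the PAR bZIP family that carry the rhythm to further genes through D-boxes. In mouse liver the RNA of Arntl is highest around the change from night to day, and those of Nr1d1, Dbp, Per3, Per1 and Per2 follow in that order through the day and into the evening, so that Arntl and Dbp are high at opposite times.

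The promoters of Ciart, Per3 and Arntl are shown because these genes varied widely between libraries, and because their start sites carry the elements of each arm of the loop. Windows of 250 bases before and 50 after a start site (RefSeq, GRCm38.p6, 5′ to 3′ in the direction of the gene) were searched on both strands for the E-box CACGTG, the related E′-box CACGTT, the D-box TTATNTAA and the RORE ANTAGGTCA, and matches are in capitals. The windows are chr3:95882179-95882478 on the minus strand for Ciart, chr4:151044616-151044915 on the minus strand for Per3 and chr7:113207261-113207560 on the plus strand for Arntl.
Ciart: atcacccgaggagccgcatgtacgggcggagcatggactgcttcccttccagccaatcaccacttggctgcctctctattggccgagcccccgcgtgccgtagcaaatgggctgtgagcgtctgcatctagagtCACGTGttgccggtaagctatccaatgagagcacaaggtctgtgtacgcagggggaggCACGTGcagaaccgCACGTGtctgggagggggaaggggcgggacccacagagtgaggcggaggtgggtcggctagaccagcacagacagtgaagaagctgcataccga
Per3: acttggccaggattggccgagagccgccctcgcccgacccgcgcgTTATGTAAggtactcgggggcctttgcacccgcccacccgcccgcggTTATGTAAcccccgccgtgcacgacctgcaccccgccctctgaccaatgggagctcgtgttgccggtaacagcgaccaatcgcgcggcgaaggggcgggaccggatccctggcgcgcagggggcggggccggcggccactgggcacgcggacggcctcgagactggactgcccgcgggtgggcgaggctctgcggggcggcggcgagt
Arntl: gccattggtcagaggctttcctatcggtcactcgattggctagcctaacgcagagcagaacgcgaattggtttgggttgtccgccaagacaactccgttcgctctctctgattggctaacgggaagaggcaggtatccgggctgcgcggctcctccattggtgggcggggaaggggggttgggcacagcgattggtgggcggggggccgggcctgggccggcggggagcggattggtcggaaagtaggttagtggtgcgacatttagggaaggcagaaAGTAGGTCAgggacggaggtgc
The Ciart window held 3 E-boxes, whose first bases lay at -116, -58 and -44 from the start site. The Per3 window held 2 D-boxes, at -205 and -158, and the Arntl window 1 RORE, beginning 29 bases into the transcript. The table gives Arntl a second window, chr7:113207215-113207514, which overlaps the one printed, ends before the RORE and held none of the motifs. Of 32851 windows in the whole promoter table, 7.15% held the E-box, 4.68% the E′-box, 3.51% the D-box and 0.661% the RORE. For 9 members the table gave 12 windows, and 7 members had at least 1 match. E-boxes were also found for Per1, Cry1 and Tef, E′-boxes for Cry1 and Nr1d1, and a further D-box for Tef. The windows of Dbp and Nr1d2 held none of these letters, and Per2 had no window. A match is a run of letters and was not tested as a binding site.

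None of the 10 genes passed the test between HO and WT when all 6 libraries were used. The threshold was an adjusted p of 0.05 in limma with Benjamini-Hochberg adjustment over all genes, where 0.325% of genes were called higher in HO and 0.815% lower, and 1 member (Per1) had an unadjusted p under 0.05, against 21.5% of all genes. The median log2 change of the members was 0.27, against -0.09 over all genes tested. Log2 changes are HO minus WT of FPKM + 0.5, which understates the change of low genes. What stood out in these genes was the spread between WT libraries. WT replicate 3 had the highest value of the 3 WT libraries for 9 members, against 38.2% of all genes, and the lowest for Arntl. Between the highest and the lowest WT library 6 members differed by 1 or more on the log2 scale, against 4.85% of all genes. Among HO libraries 1 member, Arntl, did so, against 5.82% of all genes.

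**Figure D1:**
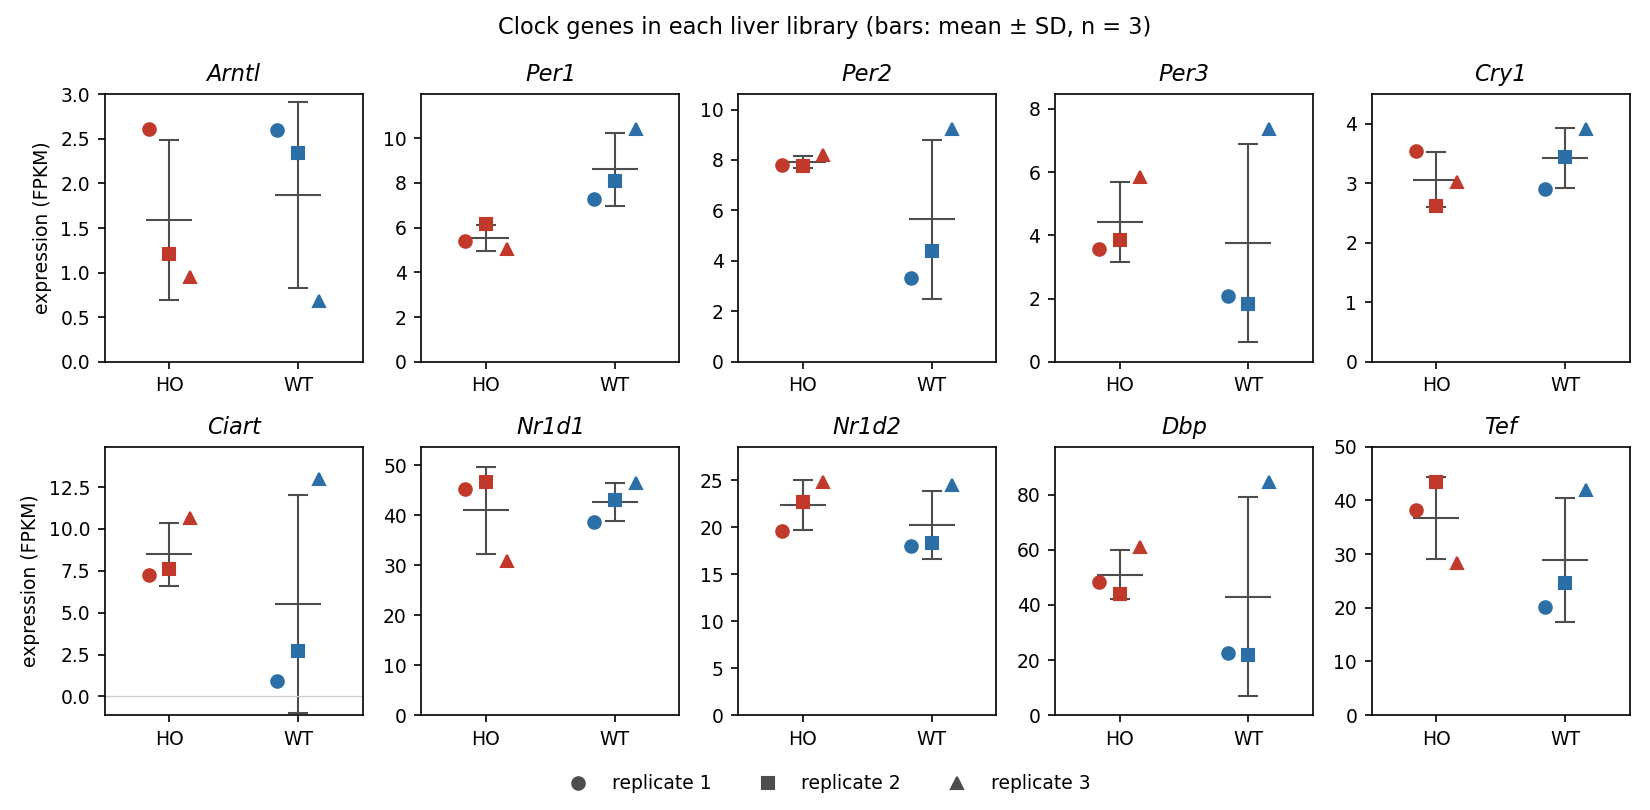
Expression (FPKM) of each of the 10 clock genes, with HO on the left and WT on the right of each panel, 1 point per library and the mean ± SD of 3 libraries as bars. WT replicate 3 (blue triangle) is the highest WT point in every panel except that of Arntl, where it is the lowest at 0.680 FPKM.

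Arntl, the positive arm of the loop, was low in all livers. It was at 2.61, 1.21 and 0.948 FPKM in HO replicates 1 to 3, against 2.60, 2.34 and 0.680 FPKM in WT replicates 1 to 3. HO replicate 1 lay with WT replicates 1 and 2, and the other HO libraries lay between these and WT replicate 3. The highest WT value was 3.82-fold the lowest, and the groups averaged 1.59 ± 0.897 FPKM in HO and 1.87 ± 1.04 FPKM in WT (SD, n = 3 each). The log2 change was -0.14 ± 0.43 (SE, limma adjusted p = 0.876), and its sign turned when HO replicate 3, WT replicate 1 or WT replicate 2 was left out.

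Dbp, a PAR bZIP factor, was high in the WT library where Arntl was low. It was at 48.2, 44.0 and 60.8 FPKM in HO replicates 1 to 3, against 22.5, 21.7 and 84.7 FPKM in WT replicates 1 to 3. All 3 HO values lay between WT replicates 1 and 2 below and WT replicate 3 above. The log2 change was 0.54 ± 0.49 (SE, limma adjusted p = 0.570), with a 95% interval of -0.63 to 1.70. The ratio of Dbp to Arntl (FPKM over FPKM) was 18.4, 36.5 and 64.2 in HO replicates 1 to 3, against 8.65, 9.27 and 125 in WT replicates 1 to 3. On the log2 scale with 0.5 added to each gene, this ratio averaged 4.69 ± 0.72 in HO and 4.01 ± 1.87 in WT (SD, n = 3 each). WT libraries thus took both the lowest and the highest ratios, with the 3 HO libraries in between.

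**Figure D2:**
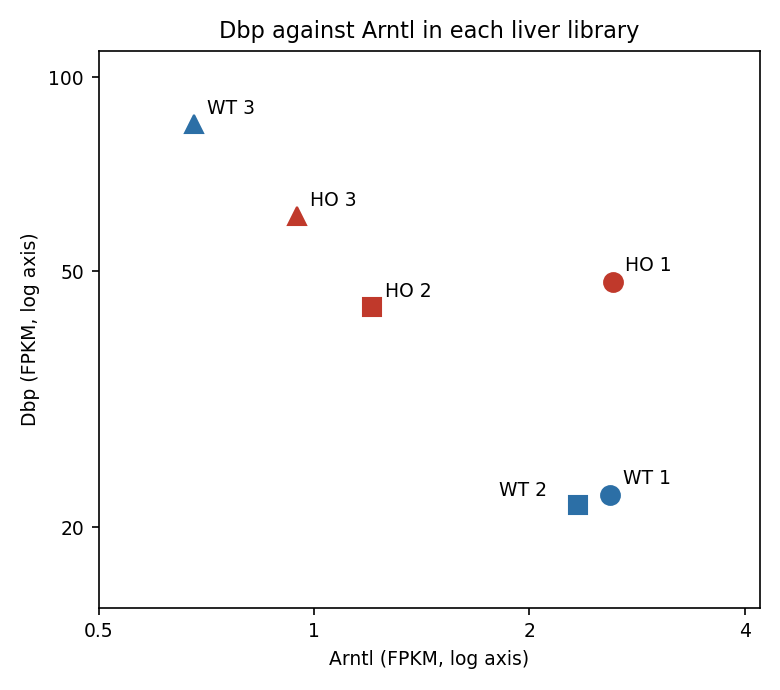
Dbp (vertical axis) against Arntl (horizontal axis) in each library, both in FPKM on log axes, with HO in red and WT in blue. WT replicates 1 and 2 sit at the lower right, WT replicate 3 at the upper left with a Dbp to Arntl ratio of 125, and HO replicate 1 lies above WT replicate 1 at nearly the same Arntl level.

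Tef, the other PAR bZIP factor, was at 38.3, 43.5 and 28.4 FPKM in HO replicates 1 to 3, against 20.1, 24.7 and 42.0 FPKM in WT replicates 1 to 3. The groups overlapped through WT replicate 3 (log2 change 0.39 ± 0.28, SE, limma adjusted p = 0.464). HO replicate 3, the highest HO library for Dbp, was the lowest for Tef.

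Ciart, a repressor of the CLOCK and BMAL1 pair whose promoter holds the 3 E-boxes printed above, varied most of the 10 genes. It was at 7.24, 7.60 and 10.7 FPKM in HO replicates 1 to 3, against 0.916, 2.71 and 13.0 FPKM in WT replicates 1 to 3. The highest WT value was 14.1-fold the lowest, while the HO values spanned 1.47-fold. The log2 change was 1.17 ± 0.73 (SE, limma adjusted p = 0.398). Its SD within groups on the log2 scale, 1.18, was higher than that of 99.5% of all genes tested. The lowest value corresponded to about 40 read equivalents, a rough estimate from the spacing of low values.

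The 3 Period genes, whose proteins repress the same pair, did not share one pattern. Per3 followed Dbp, with 3.55, 3.84 and 5.86 FPKM in HO replicates 1 to 3, against 2.09, 1.84 and 7.38 FPKM in WT replicates 1 to 3. Of the members it was the one nearest to Dbp, with a root mean square difference of 0.14 between their centred log2 values over the 6 libraries. Per2 was nearly level in HO, at 7.81, 7.78 and 8.21 FPKM, against 3.31, 4.38 and 9.25 FPKM in WT replicates 1 to 3. Again WT replicate 3 alone among the WT libraries exceeded the HO values. The log2 changes were 0.41 ± 0.46 for Per3 and 0.57 ± 0.32 for Per2 (SE, limma adjusted p = 0.646 and 0.344).

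Per1, which also responds to glucocorticoids and other acute signals, was the only member whose groups did not overlap. It was at 5.39, 6.16 and 5.03 FPKM in HO replicates 1 to 3, against 7.30, 8.10 and 10.4 FPKM in WT replicates 1 to 3. Every HO value lay below every WT value, as was the case for 21.4% of all genes tested. Means were 5.53 ± 0.579 FPKM in HO and 8.61 ± 1.63 FPKM in WT (SD, n = 3 each), and the log2 change was -0.59 with an SE of 0.15 (limma adjusted p = 0.0972). It stayed short of the threshold under every alternative tried, where the adjusted p ranged between 0.0580 and 0.252.

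Cry1, the Cryptochrome among the members, was at 3.54, 2.62 and 3.02 FPKM in HO replicates 1 to 3, against 2.90, 3.44 and 3.92 FPKM in WT replicates 1 to 3. The groups overlapped and the highest library was 1.35-fold the lowest within each group (log2 change -0.14 ± 0.15, SE, limma adjusted p = 0.640).

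The REV-ERB genes were among the more level members. Nr1d1 was at 45.3, 46.7 and 30.9 FPKM in HO replicates 1 to 3, against 38.7, 43.0 and 46.4 FPKM in WT replicates 1 to 3. HO replicate 3 was below all other libraries. The log2 change was -0.08 ± 0.17 (SE, limma adjusted p = 0.823), and its sign turned under both scaling alternatives. Nr1d2 was at 19.6, 22.7 and 24.9 FPKM in HO replicates 1 to 3, against 18.1, 18.3 and 24.5 FPKM in WT replicates 1 to 3, and the log2 change was 0.15 with an SE of 0.15 (limma adjusted p = 0.609). Its highest values were those of HO replicate 3 and WT replicate 3, as they were for Dbp, Per2, Per3 and Ciart.

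**Figure D3:**
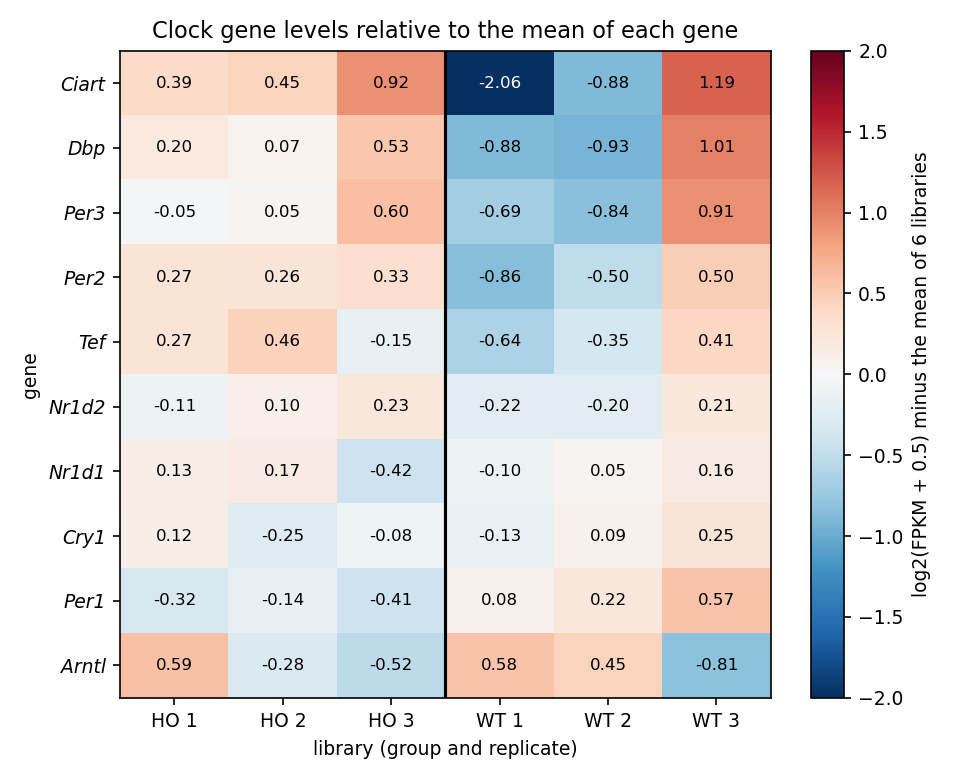
Level of each clock gene (rows) in each library (columns, HO left of the line and WT right of it) as log2(FPKM + 0.5) minus the mean of the gene over the 6 libraries, with red above and blue below that mean. WT replicates 1 and 2 are lowest and WT replicate 3 highest in the rows of Ciart, Dbp, Per3 and Per2, and the HO libraries lie between.

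The order of the libraries was shared by several members. From high to low it was WT replicate 3, HO replicate 3, the other HO libraries and then the other WT libraries for 4 of 10 members (Dbp, Per2, Per3 and Ciart), against 0.611% of all genes tested. All 3 HO values of these 4 genes lay inside the WT range, as did those of 11.6% of all genes. These patterns were chosen after the values were seen and are a description of the 6 libraries. HO replicate 1 kept no single place on this order, since it had the highest Arntl of all libraries and a middle value of Dbp. The median SD within groups of log2(FPKM + 0.5) was 0.469 for the members, against 0.183 for all genes tested, and 6 of 10 members were above the 90th percentile of all genes (Ciart, Dbp, Per3, Arntl, Per2 and Tef). Cry1, Per1, Nr1d2 and Nr1d1 had SDs of 0.187 to 0.249.

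**Figure D4:**
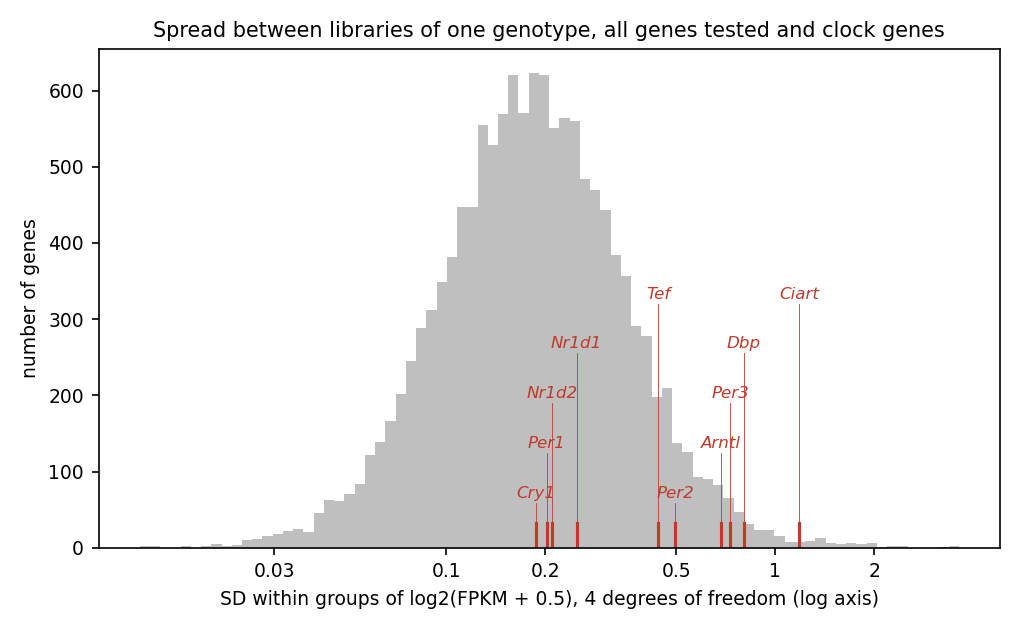
Histogram of the SD within groups of log2(FPKM + 0.5), on a log axis, for all 13250 genes tested, with the 10 clock genes marked in red. Cry1, Per1, Nr1d2 and Nr1d1 lie in the bulk of the distribution, and Ciart at 1.18 lies in its upper tail.

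Dbp and Per2 were called higher in HO only in the fit without WT replicate 3. That library held the highest WT value of both genes, so leaving it out could only raise their changes. These calls are therefore no separate evidence of a rise in HO. With the remaining 3 HO and 2 WT libraries, the log2 change was 1.18 ± 0.15 for Dbp and 0.97 ± 0.14 for Per2 (SE, limma adjusted p = 0.0268 and 0.0368). These 2 calls among 10 members stand beside 0.687% of all genes called higher in that fit. Ciart had a log2 change of 2.06 and Per3 of 0.97 without it (limma adjusted p = 0.0522 and 0.0845). Leaving out WT replicate 1 instead reduced the log2 changes to 0.23 for Dbp, 0.29 for Per2, 0.17 for Per3 and 0.43 for Ciart. Leaving out WT replicate 2 gave 0.21 for Dbp, 0.47 for Per2, 0.09 for Per3 and 1.02 for Ciart. Without HO replicate 3 the log2 change of Per3 was 0.21. No member was called when any library other than WT replicate 3 was left out. The labels used here do not set WT replicate 3 apart from the other WT libraries, and the spread of the WT group in this fit rests on 2 libraries.

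**Figure D5:**
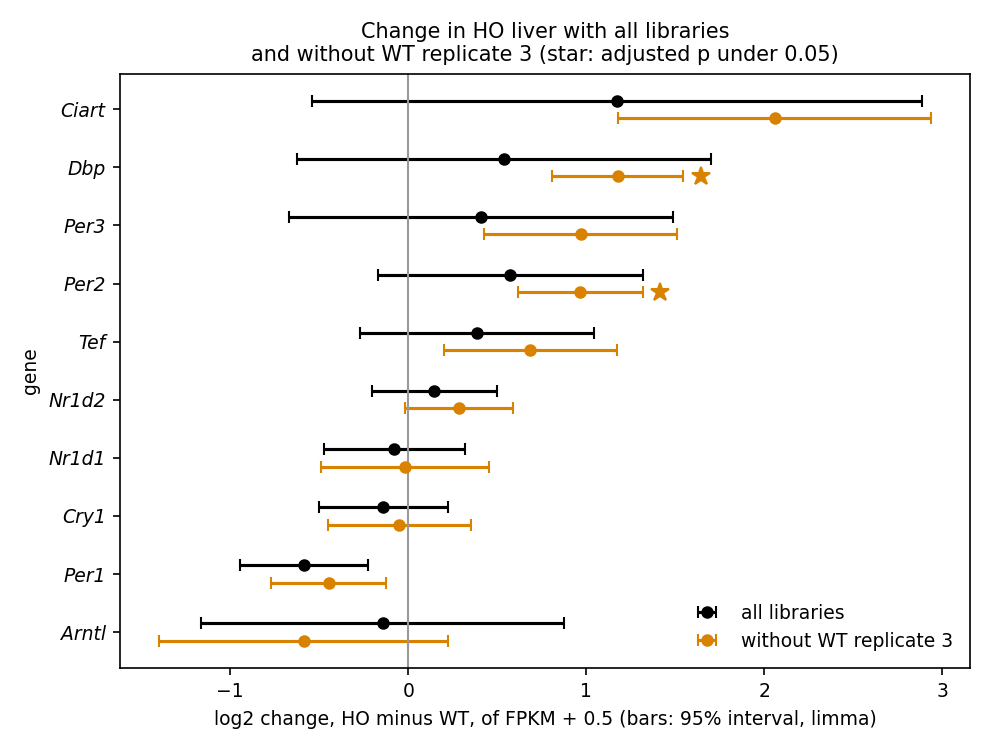
Log2 change (HO minus WT, FPKM + 0.5) of each clock gene with its 95% interval from limma, with all 6 libraries in black and without WT replicate 3 in orange. Only Dbp and Per2 without WT replicate 3 carry a star, which marks an adjusted p under 0.05, and the intervals of Ciart, Dbp and Per3 are narrower there than with all libraries.

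The other components of the clock were mostly level. Of 21 listed genes 18 were tested, and 2 of these had a WT range of 1 or more on the log2 scale, against 4.85% of all genes. None was called in either direction with all libraries, with a median log2 change of -0.06. In limma 1 had an unadjusted p under 0.05, against 21.5% of all genes. The smallest p was that of Fbxl21, which encodes an F-box protein that acts on Cryptochromes, at 1.53, 0.959 and 1.48 FPKM in HO replicates 1 to 3, against 3.07, 2.42 and 2.46 FPKM in WT replicates 1 to 3 (limma adjusted p = 0.0766). Bhlhe40, a repressor at E-boxes, and Btrc, an F-box protein that marks Period proteins for degradation, came next (log2 changes 0.32 and -0.31, limma adjusted p = 0.278 and 0.349). Clock itself, the partner of Arntl, was at 3.26, 4.21 and 3.95 FPKM in HO replicates 1 to 3, against 4.47, 5.01 and 3.64 FPKM in WT replicates 1 to 3. Npas2, which can take the place of Clock, reached at most 0.399 FPKM in any library and was not tested. Cry2 had the library order of Dbp, at 10.4, 9.81 and 12.0 FPKM in HO replicates 1 to 3, against 7.22, 7.00 and 12.5 FPKM in WT replicates 1 to 3. Bhlhe41, a relative of Bhlhe40, was at 1.55, 1.42 and 1.42 FPKM in HO replicates 1 to 3. In WT replicates 1 to 3 it was at 0.552, 0.320 and 1.83 FPKM. It was the gene of this list called higher in HO without WT replicate 3, its highest WT library (limma adjusted p = 0.0469). Clock, Npas2, Cry2 and Bhlhe41 were chosen after their values were seen.

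Genes that the clock drives in liver also differed among libraries of the same group. Of 18 listed, 17 were tested and none was called with all libraries, with a median log2 change of 0.04. In limma 8 had an unadjusted p under 0.05, against 21.5% of all genes. The WT range was 1 or more on the log2 scale for 7 of the 17, against 4.85% of all genes. In each of the 7 WT replicate 3 was the highest or the lowest WT library. The same held for 489 of the 643 genes with such a range among all genes tested. Both properties together were found in 3.69% of all genes. The HO range was 1 or more for 5 of the 17, against 5.82% of all genes. Usp2, a deubiquitinase gene with strong rhythm in many tissues, was at 8.86, 7.28 and 8.85 FPKM in HO replicates 1 to 3, against 2.18, 4.57 and 12.4 FPKM in WT replicates 1 to 3. Wee1, the kinase that links the clock to the cell cycle, was at 2.37, 1.86 and 2.63 FPKM in HO replicates 1 to 3, against 1.20, 1.52 and 5.26 FPKM in WT replicates 1 to 3. For both, the 3 HO values lay above WT replicates 1 and 2 and below WT replicate 3, as for Dbp. They were chosen after their values were seen.

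The output genes with the smallest p differed from that pattern. Nr1i3, which encodes the xenobiotic receptor CAR and is a target of PAR bZIP factors, was at 64.2, 71.1 and 60.2 FPKM in HO replicates 1 to 3, against 91.4, 98.7 and 87.5 FPKM in WT replicates 1 to 3 (limma adjusted p = 0.0582). Noct, a rhythmic phosphatase gene, was at 3.71, 3.74 and 4.14 FPKM in HO replicates 1 to 3, against 4.94, 6.20 and 5.84 FPKM in WT replicates 1 to 3 (limma adjusted p = 0.0904). Por, the electron donor of P450 enzymes, was at 136.5, 172.02 and 208.3 FPKM in HO replicates 1 to 3, against 78.3, 78.0 and 123.7 FPKM in WT replicates 1 to 3 (limma adjusted p = 0.0912). For these 3 genes the groups did not overlap. Of the 17 genes 3 lay above all WT values in HO (Por, Avpr1a and Upp2), as did 6.42% of all genes, and 3 lay below them (Nr1i3, Noct and Rgs16), as did 21.4% of all genes. Por was called higher in HO without WT replicate 3, its highest WT library (limma adjusted p = 0.0425).

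Genes with library profiles most like those of Dbp and Arntl were sought among 1736 genes outside the lists that averaged 1 FPKM or more and spanned 1 or more on the log2 scale. The 5 nearest to Dbp were Mnt, Fbf1, Hopx, Zfyve21 and Map1lc3b, with root mean square differences of 0.31 to 0.36 between centred log2 values over 6 libraries. The 5 nearest to Arntl were Pitx3, Clpx, Gm13092, Krt23 and Klf2, with differences of 0.15 to 0.24. Clpx, the most abundant of these, was at 71.2, 52.0 and 48.9 FPKM in HO replicates 1 to 3, against 84.6, 81.4 and 34.1 FPKM in WT replicates 1 to 3. Dbp and Arntl themselves were 1.21 apart on the same measure.

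Signals that can reset a liver clock were looked at through further gene lists. Of 13 genes of fasting and glucocorticoid signalling, Fkbp5, a glucocorticoid-induced chaperone, was the only one that passed with all libraries. It rose in HO, to 39.8, 53.2 and 43.2 FPKM in replicates 1 to 3, against 9.99, 18.2 and 17.7 FPKM in WT replicates 1 to 3 (log2 change 1.57 ± 0.24, SE, limma adjusted p = 0.0372). Its call held without WT replicate 3 and was lost without any other single library, where the limma adjusted p ranged between 0.0515 and 0.112. It was also lost with no filter, without an eBayes trend and under the replicate block (limma adjusted p = 0.0739, 0.0570 and 0.0501). Of the 13 genes 7 had a positive log2 change, against 4696 of all 13250 genes, and the median was 0.04. In limma 5 had an unadjusted p under 0.05, against 21.5% of all genes (Fkbp5, Fgf21, Irs2, Mt2 and Ppargc1a). Fgf21, Irs2 and Ppargc1a had log2 changes of -1.07, 0.87 and -0.38 (limma adjusted p = 0.0747, 0.0806 and 0.209). The glucocorticoid-responsive Tsc22d3, Sgk1 and Tat had log2 changes of -0.12, 0.08 and -0.02 (limma adjusted p = 0.884, 0.841 and 0.942). The metallothionein gene Mt2 had one of 5.33 (limma adjusted p = 0.103). Mt2 was uneven in HO, at 27.0, 1806 and 1106 FPKM in replicates 1 to 3, against 9.38, 9.82 and 7.76 FPKM in WT replicates 1 to 3. These 4 genes were chosen after their values were seen. The part of these signals in the clock gene values was not tested. Of 12 genes of body temperature and heat shock none passed (limma, 5 at an unadjusted p under 0.05, against 21.5% of all genes). The cold-inducible Cirbp had the smallest p, with 7.43, 8.05 and 5.83 FPKM in HO replicates 1 to 3, against 12.0, 11.3 and 12.4 FPKM in WT replicates 1 to 3 (limma adjusted p = 0.0571). Of the alternatives tried, array weights alone called it lower (limma adjusted p = 0.0322). Hspa1b and Dnajb1 had adjusted p-values of 0.113 and 0.168 in limma. None of 10 tested genes of feeding and insulin signalling passed, with a median log2 change of -0.51. In limma 5 had an unadjusted p under 0.05, against 21.5% of all genes. The smallest p-values were those of Fasn, Acly and Insig1 (log2 changes -0.98, -0.52 and -0.99, limma adjusted p = 0.0526 each). Array weights called 4 of the 10 genes lower, against 5.22% of all genes. Scd1 was called lower without HO replicate 3, its highest HO library, against 0.0905% of all genes.

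Acute phase genes, induced by inflammation, had a positive log2 change in all 16 genes tested, against 4696 of all 13250 genes, with a median of 1.12. With all libraries 2 of the 16 rose in HO (Socs3 and Il1r1), against 0.325% of all genes, and none fell, against 0.815%. HO replicate 1 was the lowest HO library for 15 of the 16 genes, against 36.5% of all genes. Without it 11 were called higher, against 0.587% of all genes, with a median log2 change of 2.0. Leaving out the lowest HO library could only raise the changes of those 15 genes. The 11 calls are therefore no separate evidence of a rise in HO. Array weights called 9 higher, against 1.88% of all genes. No filter called 0 (limma, 10 at an unadjusted p under 0.05, against 15.5% of all genes in that fit). The call of Socs3 was lost without HO replicate 3, WT replicate 1 or WT replicate 2, and that of Il1r1 without any library other than HO replicate 1 (limma adjusted p up to 0.109 and 0.166). Saa1, chosen after its values were seen, was at 111.01, 2525 and 2630 FPKM in HO replicates 1 to 3, against 125.3, 65.6 and 161.7 FPKM in WT replicates 1 to 3. HO replicates 2 and 3 were high, and HO replicate 1 lay among the WT libraries. WT replicate 3 was the highest WT library for 10 of the 16 genes, as it was for 9 of the 10 clock genes and 38.2% of all genes. The part of inflammation in the clock gene values was not tested.

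Hepatocyte markers were abundant in all libraries, and sums of marker FPKM do not measure shares of cells. Summed over 7 hepatocyte markers, expression was 42828 to 46916 FPKM in HO and 48584 to 51118 FPKM in WT, without overlap. Alb made most of this sum, and the single markers did not go one way. In HO 2 of the 7 lay above all WT values (Hnf4a and Apoa1), as did 6.42% of all genes. Below all WT values lay 2 (Alb and Ttr), as did 21.4% of all genes. The sums over 5 Kupffer cell markers were 53.8 to 69.7 FPKM in HO and 65.4 to 107.04 FPKM in WT. Those over 5 stellate cell markers were 54.2 to 67.4 FPKM in HO and 77.6 to 94.4 FPKM in WT, also without overlap. Dcn made most of the stellate sum. Of these 5 markers 3 lay below all WT values in HO, against 21.4% of all genes, and 1 had a positive log2 change (Des). The part of these cell types in the clock gene values was not tested. The sums over 5 endothelial markers were 34.9 to 40.6 FPKM in HO and 37.0 to 46.6 FPKM in WT. Markers of cholangiocytes, lymphocytes and neutrophils summed to at most 7.46 FPKM in any library, with Ly6g at 0 in all. In such bulk tissue, fewer cells of a type and less RNA per cell cannot be told apart. Exons of Arntl, Nr1d1, Dbp and Tef overlap annotated genes on the opposite strand, and the use of strand in counting is not stated in the sources used here. For Dbp the overlapping gene Sphk2 was at 24.9, 20.7 and 21.8 FPKM in HO replicates 1 to 3, against 21.6, 18.8 and 29.5 FPKM in WT replicates 1 to 3. This range was narrower than that of Dbp, but the WT libraries had the same order for both genes. The part of this overlap in the Dbp values was not tested.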

How the data were processed

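Total liver RNA was sequenced as 3 HO and 3 WT strand-marking Illumina libraries, per the labels' protocols. The authors deposited gene expression as FPKM. Tools named in the submitters' processing notes are HISAT2, HTSeq, DESeq2 and StringTie, with the build mm10 and no versions or roles. Columns were matched to samples by group and replicate number.

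The 13250 genes averaging at least 0.5 FPKM were kept. A linear model of HO minus WT was fitted to log2(FPKM + 0.5) in limma 3.58.1 (R 4.3.3), without a block and with a trended eBayes step. Two-sided p-values had Benjamini-Hochberg adjustment over these genes, at 0.05. Alternatives were other pseudocounts, filters, scalings, eBayes settings and weights (statmod 1.5.0), the replicate block, and each library left out in turn. The fit was tested on simulated data. FPKM keeps no counts: 32.4% to 34.5% of low values were whole multiples of the commonest step between them (tolerance 0.02), too few to recover reads, and that step gave 19100000 to 24600000 read equivalents per library. Deposited FPKM is relative to all genes of a library, so a change in abundant genes moves the rest.

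Named are the 10 members, the genes of each other list that passed or else the 3 with the smallest p, and the 5 nearest profiles to Dbp and to Arntl. Also named are Scd1, for its call without HO replicate 3, and the fasting genes with an unadjusted p under 0.05 in limma. Other genes are marked as chosen after their values were seen. Members and lists were chosen with earlier results of these data known, so the lists are described by counts and medians, with no set test. Gene positions came from GENCODE M21 and promoters from RefSeq (GRCm38.p6). Python 3.11.15, numpy 2.4.6, pandas 2.3.3 and matplotlib 3.10.9 were used.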

Additional observations from a re-analysis of the deposited data

How the results depend on the processing

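No member was called under any alternative except Dbp and Per2 without WT replicate 3. With each library left out in turn, the members called higher numbered 0 to 2, the other clock genes called higher 0 to 1, the clock-driven output genes called higher 0 to 1, and all genes called higher 2 to 91 and lower 4 to 168, against 43 and 108 with all libraries. The median SD within groups of the members ranged between 0.235 (without WT replicate 3) and 0.540. Array weights gave 249 genes higher and 692 lower in all, with 1 other clock gene lower (Fbxl21) and 1 clock-driven output gene higher (Por) and 1 lower (Nr1i3). Over all genes the counts higher and lower were 70 and 64 with median-of-ratios scaling, 7 and 33 with no filter, 18 and 59 without a trend, and 23 were higher with a pseudocount of 0.1. Median-of-ratios scaling moved the median log2 change of all genes from -0.09 to 0.01. The log2 change of Nr1d1 turned positive under both scalings (0.033 for median-of-ratios, 0.018 for quantile) and, over libraries left out, ranged between -0.18 and 0.11, positive without HO replicate 3. That of Arntl ranged between -0.59 and 0.11, positive at 0.08 without HO replicate 3 and at 0.11 and 0.05 when WT replicate 1 or 2 was dropped. The cause was not tested. Taken over all genes, HO and WT libraries with the same number did not deviate together (correlations of 0.0661, -0.0281 and 0.0147). The replicate block gave 10 genes higher and 15 lower, with no member called. Members differed in this: under the block the SE of the log2 change fell from 0.43 to 0.23 for Arntl and from 0.49 to 0.32 for Dbp. It also fell for Per2, Per3, Nr1d2 and Ciart, and it rose for Per1, Cry1, Nr1d1 and Tef. Low levels limit precision: Arntl in WT replicate 3 was at 0.680 FPKM, roughly 112 read equivalents. That figure is only an estimate, since reads could not be recovered.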
